A study of Rattus norvegicus with 18 samples.

Results

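The genes described here encode ion channels and neurotransmitter receptors in the L5 dorsal root ganglion (DRG), which holds the cell bodies of the sensory neurons of 1 spinal nerve. They were chosen by the first letters of their symbols, which stand for sodium, calcium, potassium and chloride channel families, TRP channels, anoctamins, receptors for GABA, glutamate, acetylcholine, serotonin and ATP, acid-sensing channels and calcium release channels. Of 26172 genes in the table, 33 had such a symbol, 7 potassium channel and serotonin receptor genes were left out by name, and the remaining 26 had reads in 6 of 6 libraries at the 50 M depth. 1 of the 26, Htra3, encodes a secreted serine protease whose symbol only shares its letters with the serotonin receptors, which leaves 25 channel and receptor genes. Symbols came from a table that the authors made for genes with enough intronic reads, and only 1994 of its genes were at hand, so many channels of the DRG are not among the 26. No member belonged to the glutamate, muscarinic, nicotinic or serotonin receptors.

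The samples were L5 DRG of male Wistar rats, either naive or taken 7 days after spinal nerve transection (SNT), in which the L5 spinal nerve is cut beyond the ganglion. The naive rats had no sham surgery, the ages were not given, and each of the 3 SNT and 3 naive samples pooled ganglia of 4 animals. Each library was sequenced in 3 runs named 17 M, 25 M and 50 M, which are technical replicates of the same RNA. At 50 M the reads assigned to genes numbered 15000789 to 17480115 in SNT and 18588873 to 19031166 in naive libraries. In the 13 genes fixed as sensory neuron markers, 10 fell in SNT and 3 were not called, and all had reads in each library, as had the 10 Schwann and satellite glial cell markers. All values are normalized counts unless stated otherwise, that is, reads of a gene divided by the size factor of the library, and they are not corrected for gene length, so levels are compared between samples and not between genes.

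Voltage-gated sodium channels carry the upstroke of the action potential, potassium channels end it and hold the resting potential, and calcium channels open at nerve terminals to release transmitter. GABA receptors dampen primary afferents, ATP-gated P2X receptors and acid-sensing channels respond to substances set free by damaged tissue, and calcium release channels empty the stores of the endoplasmic reticulum. After nerve injury, altered sodium, potassium and calcium currents in DRG neurons are a well known feature of neuropathic pain models.

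At 50 M, 13 of the 26 genes were lower in SNT, 6 were higher and 7 were not called (limma on log2(normalized count + 1), FDR 0.1). Among all 17930 genes tested, 58.5% were called, 29.4% as lower and 29.2% as higher. Of the 10473 genes with a mean at or above that of the lowest member 70.7% were called, 37.6% lower and 33.1% higher. The share of members called was near that of these genes. The SNT and naive ranges were apart in 19 of the 26 members, all of them called, against 62.1% of all tested genes. The share with ranges apart was not computed for called genes or for genes with means like those of the members. The median log2 fold change of the 26 genes was -0.26, compared with 0.01 for all genes, and the median of its size without regard to sign was 0.79 against 0.49. Without Htra3, 5 genes were higher and 13 lower. Bulk RNA cannot separate fewer cells of a type from less RNA per cell, and this holds for each difference given here.

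**Figure D1:**
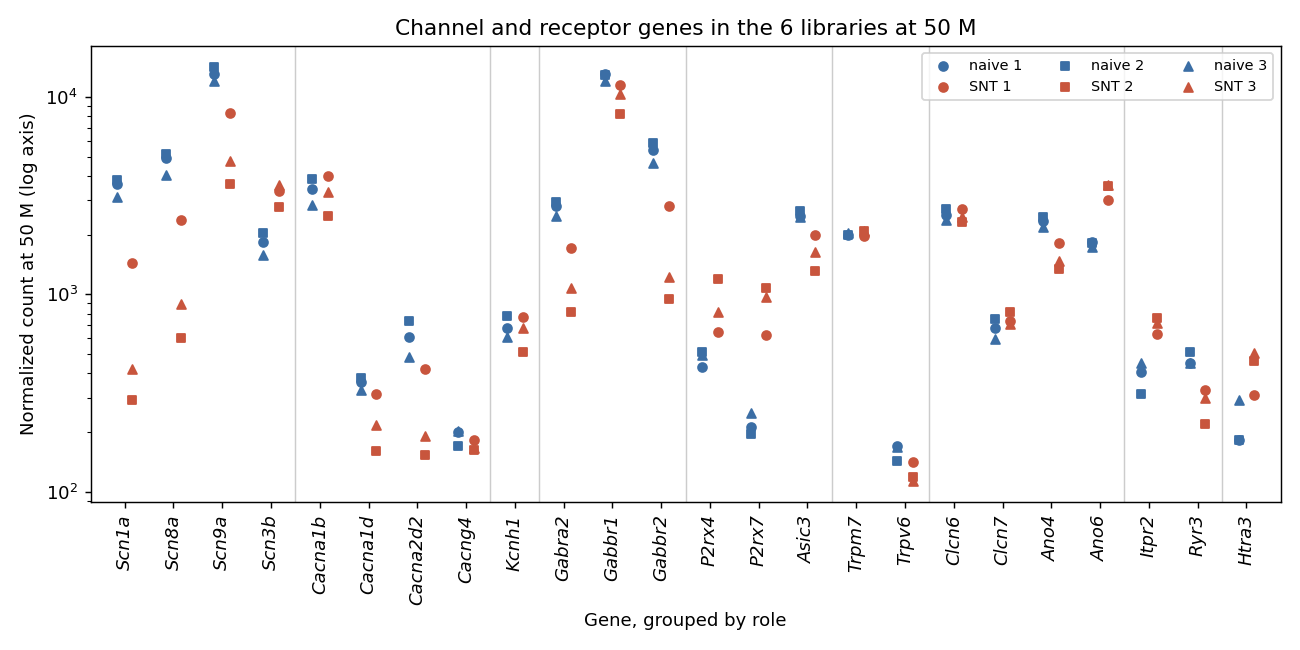
Normalized count at 50 M (log axis) of 24 of the genes in the 3 naive (blue) and 3 SNT (red) libraries, 1 symbol per replicate, with grey lines between roles. Scn1a, Scn8a and Gabbr2 show the widest gaps below the naive libraries and P2rx7 the widest above them, and Trpm7 lies within 1979 to 2101 in all libraries.

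The 3 SNT libraries differed among themselves. SNT replicate 1 was the SNT library nearest to the naive mean in 13 of 13 members that fell and in 5 of 6 that rose, as in 81.4% of all genes that fell and 80.3% of those that rose. The summed sensory neuron markers were 67.4%, 37.9% and 46.5% of the naive mean in SNT replicates 1, 2 and 3, while naive libraries ranged from 463924 to 534049. Nefh, a neurofilament gene, carried much of this sum, which without it was at 81.4%, 52.9% and 64.6%. The single markers ranged from 25.8% (Snap25) to 113% (Stmn2) of the naive mean. The paper lists Nefh, Snap25 and Calca among the genes downregulated after SNT. The members that fell stood at a median of 69.1% of the naive mean in SNT replicate 1, 29.5% in SNT replicate 2 and 39.0% in SNT replicate 3. Replicate 1 was the highest and replicate 2 the lowest SNT library for 11 of these 13 genes, as for 58.8% of all genes that fell. The summed myeloid markers (9 genes, 8 called higher) moved the other way, at 201%, 388% and 254% of the naive mean in the same order, from 13612 to 14397 in naive libraries. Without Gpnmb, the myeloid marker with the largest fold rise, they were at 164%, 243% and 208%. Among the myeloid markers Ptprc, a marker of all leukocytes, was at 4.18 times its naive mean, and no marker was at 0. The fibroblast markers (8 of 8 higher) summed to 121476 to 189715 in SNT against 52140 to 82541 in naive libraries. The glial markers (4 of 10 higher, 6 not called) summed to 383542 to 480403 against 313037 to 565180. The part of these cell types in the results for the channels was not tested. Without SNT replicate 1, 13 members were lower and 6 higher.

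**Figure D2:**
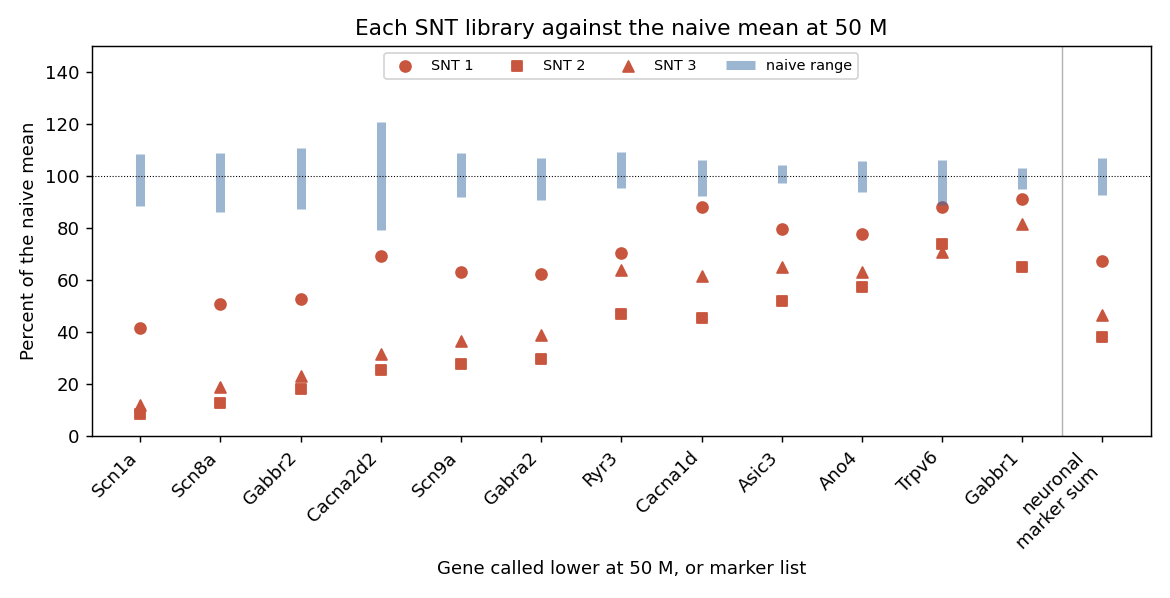
Each SNT library as percent of the naive mean at 50 M for 12 of the genes that fell, ordered by their mean, and for the summed sensory neuron markers; blue bars span the naive libraries. SNT replicate 1 (circles) is the highest SNT library for each gene, and the genes range from 8.32% for Scn1a in SNT replicate 2 to 91.0% for Gabbr1 in SNT replicate 1.

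The sequence before the start of 20 of the 26 genes was held in the RefSeq table of the GRCr8 build, with 21 sequences in all since Ryr3 has 2 starts. Of the genes described here, Cacng4, Gabra2, Scn1a and Scn3b had no entry. In the 250 bases before each start, 4 motifs were searched on both strands: the AP-1 site TGANTCA, the cAMP response element TGACGTCA, the GC box GGGCGG and the TATA box TATAAA. A GC box was found in 15 of the 21 sequences, against 30.5% of the 33469 sequences in the table. An AP-1 site was found in 0 of 21 (6.34% of all), a cAMP response element in 0 of 21 (1.59% of all) and a TATA box in 1, that of Clcn7 (12.9% of all). These are matches of letters, and the binding of a factor was not measured. The GC content of the 21 sequences had a median of 66.4%, with a range of 43.6% to 88.8%, against a median of 51.2% for the table. P2rx4 and P2rx7 lie on the same strand of chromosome 12 with 71833 bases between their starts. Shown here are the bases outside the RefSeq gene for the member that rose the most, P2rx7 (chr12:39594985-39595172, minus strand), and for 2 that fell, Scn9a (chr3:71701378-71701627, minus strand) and Gabbr2 (chr5:66083696-66083945, minus strand), 5′ to 3′ on the gene's strand, with GC boxes in capitals. P2rx7 and Gabbr2 each hold 1 GC box in the stretch shown and Scn9a holds none of the 4 motifs. The 250 bases searched for P2rx7 held 2 GC boxes and lay partly inside the RefSeq gene, so only 188 of them are shown. Such overlap was looked at only for the genes shown.
P2rx7: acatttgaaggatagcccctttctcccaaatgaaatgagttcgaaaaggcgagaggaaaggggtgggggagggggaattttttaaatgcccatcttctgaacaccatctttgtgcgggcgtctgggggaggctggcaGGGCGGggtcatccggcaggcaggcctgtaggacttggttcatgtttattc
Scn9a: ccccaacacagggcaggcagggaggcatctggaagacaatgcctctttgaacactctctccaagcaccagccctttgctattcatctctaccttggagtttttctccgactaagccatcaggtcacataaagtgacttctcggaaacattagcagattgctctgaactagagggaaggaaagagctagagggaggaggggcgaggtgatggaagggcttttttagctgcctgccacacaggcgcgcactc
Gabbr2: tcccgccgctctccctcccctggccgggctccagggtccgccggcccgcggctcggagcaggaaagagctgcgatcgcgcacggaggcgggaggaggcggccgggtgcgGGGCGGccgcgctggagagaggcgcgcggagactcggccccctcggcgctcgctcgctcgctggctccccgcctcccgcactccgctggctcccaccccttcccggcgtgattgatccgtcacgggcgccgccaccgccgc

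Of the 4 sodium channel genes, the 3 that encode pore-forming subunits fell and the 1 auxiliary subunit rose. Scn1a (ENSRNOG00000005989), found mainly in large myelinated sensory neurons, had 3627, 3807 and 3101 normalized counts in naive replicates 1, 2 and 3 and 1451, 292 and 418 in SNT replicates 1, 2 and 3. All SNT libraries were below the lowest naive library, and replicate 1 lay far above the other two. The SNT mean was 20.5% of the naive mean (log2 fold change -2.64 ± 0.54 SE, limma adjusted p = 0.00864), the largest fall among the members, and 10.1% without SNT replicate 1. Scn8a (ENSRNOG00000005309), the main sodium channel of the nodes of Ranvier, had 4936, 5120 and 4051 in naive and 2391, 603 and 891 in SNT libraries. It fell to 27.5% of the naive mean (-2.10 ± 0.46, limma adjusted p = 0.0105), or to 15.9% without SNT replicate 1. Scn9a (ENSRNOG00000006639), the channel whose loss in people abolishes the sense of pain, had 13028, 14272 and 12053 in naive and 8284, 3613 and 4772 in SNT libraries. It stood at 42.4% of the naive mean (-1.32 ± 0.28, limma adjusted p = 0.00971).

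Scn3b (ENSRNOG00000006937), an auxiliary beta subunit that alters the gating and surface level of the pore-forming subunits, went the other way. Its normalized counts were 1842, 2046 and 1592 in naive and 3358, 2774 and 3572 in SNT libraries. Each SNT library exceeded each naive library, and the mean was 1.77 times the naive mean (log2 fold change 0.82 ± 0.13, limma adjusted p = 0.00458). Without SNT replicate 1 it was 1.74 times.

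Within the pore-forming subunits the falls were unequal. The ratio of 2 genes within a library does not depend on how libraries are scaled, and 9 such ratios were compared with an exact two-sided permutation test, in which 3 against 3 libraries cannot give a p below 0.1. Counts are not corrected for length, so only the change of a ratio between groups can be read. The ratio of Scn1a to Scn8a was 0.735, 0.743 and 0.765 in naive libraries and 0.607, 0.485 and 0.469 in SNT libraries. The groups did not overlap, and the ratio fell to 0.692 of its naive value (exact p = 0.1, adjusted over the 9 ratios 0.113). Each ratio with an exact p of 0.1 had this adjusted value, so no ratio passed an FDR of 0.1. The ratio of Scn9a to Scn8a was 2.64, 2.79 and 2.98 in naive and 3.46, 5.99 and 5.36 in SNT libraries. This was a 1.72-fold higher ratio with no overlap (exact p = 0.1). Scn1a to Scn9a fell to 0.403 of the naive ratio, from 0.278, 0.267 and 0.257 to 0.175, 0.0809 and 0.0876. Scn9a thus kept a larger share of its naive level than Scn8a, and Scn8a than Scn1a, in each SNT library.

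**Figure D3:**
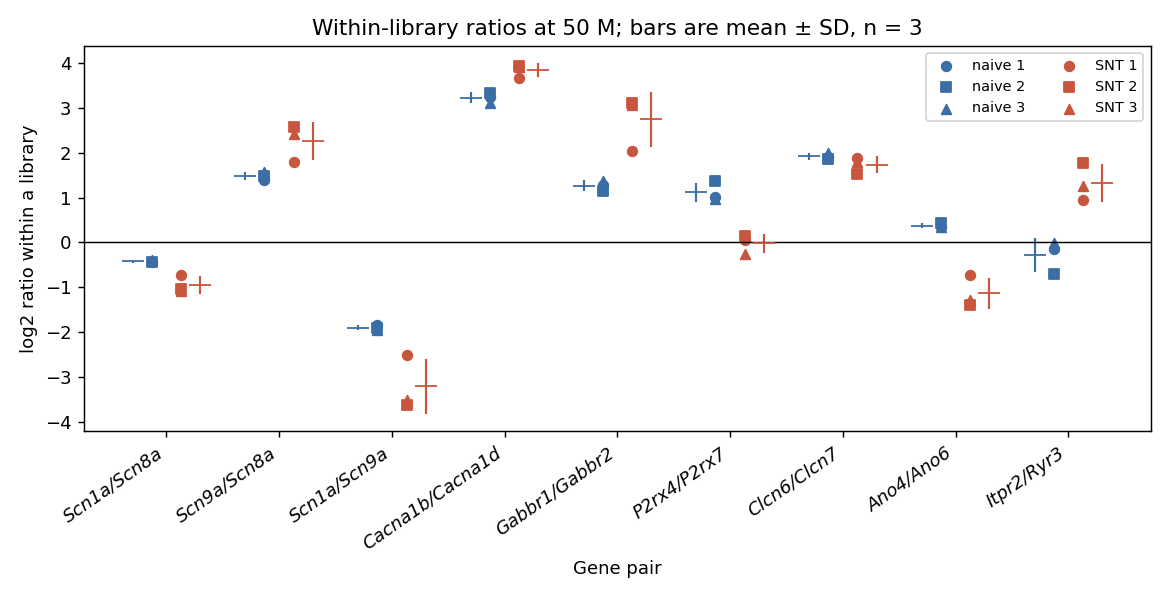
The log2 ratio of 2 genes within each library at 50 M, for 9 pairs, in naive (blue) and SNT (red) libraries; bars give the mean ± SD (n = 3). The groups are apart for 8 pairs and overlap for Clcn6 to Clcn7. The share of all gene pairs with groups apart was not computed, so the 8 are a description. Scn1a to Scn9a is fixed by the other sodium channel ratios. Ano4 to Ano6 and Itpr2 to Ryr3 had to be apart, since their genes changed in opposite directions with groups apart.

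The calcium channel genes split into 2 that fell and 2 that were not called. Cacna1b (ENSRNOG00000004560), the pore of the N-type channel that drives transmitter release from sensory terminals, had 3417, 3836 and 2830 in naive and 3997, 2491 and 3307 in SNT libraries. The ranges overlapped, with SNT replicate 1 above all naive libraries and SNT replicate 2 below them (log2 fold change -0.06 ± 0.19, limma adjusted p = 0.823). Cacna1d (ENSRNOG00000013147), an L-type channel pore, had 359, 376 and 327 in naive and 311, 161 and 217 in SNT libraries. It fell to 64.9% of the naive mean (-0.67 ± 0.23, limma adjusted p = 0.0468), and SNT replicate 1 lay close below the naive range. This call was lost without naive replicate 1, naive replicate 2 or SNT replicate 3 (limma adjusted p = 0.118, 0.126 and 0.119). The ratio of Cacna1b to Cacna1d was 9.51, 10.2 and 8.66 in naive and 12.9, 15.5 and 15.2 in SNT libraries, a 1.53-fold higher ratio without overlap (exact p = 0.1).

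Cacna2d2 (ENSRNOG00000015835) encodes an alpha-2-delta subunit, the kind of subunit that gabapentin binds. Its normalized counts were 606, 732 and 481 in naive and 419, 154 and 191 in SNT libraries, and each SNT library was below the naive range. The mean fell to 42.0% of naive (log2 fold change -1.37 ± 0.37, limma adjusted p = 0.0207). This fall does not stand for all alpha-2-delta genes, since the paper lists Cacna2d1, which is not a member, as upregulated after SNT. Cacng4 (ENSRNOG00000003262), a gamma subunit that also serves glutamate receptors of the AMPA type, was not called, at 192 ± 18.1 (SD, n = 3) in naive and 171 ± 11.3 in SNT libraries (limma adjusted p = 0.310).

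Kcnh1 (ENSRNOG00000003841), an ether-a-go-go potassium channel, overlapped between groups, at 687 ± 88.2 (SD, n = 3) in naive and 651 ± 129 in SNT libraries (log2 fold change -0.09 ± 0.17, limma adjusted p = 0.685). SNT replicate 2 was the lowest of the 6 libraries. The 6 potassium channel genes left out by name (Kcnd3, Kcnab1, Kcnc1, Kcnc2, Kcnip3 and Kcnh7) were all lower in SNT, as were 29.4% of all genes tested. They were set aside with earlier results of these data known, so their common direction is a description and does not stand for potassium channels in general.

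All 3 GABA receptor genes among the members fell. The paper lists Gabra5, another GABA receptor subunit gene that is not a member, as upregulated after SNT. Gabra2 (ENSRNOG00000002349), an alpha subunit of the GABA-A receptor chloride channel, had 2811, 2948 and 2504 in naive and 1711, 814 and 1074 in SNT libraries. SNT libraries lay well below naive ones, with a mean of 43.6% of naive (log2 fold change -1.26 ± 0.25, limma adjusted p = 0.00788). Gabbr1 and Gabbr2 encode the 2 subunits of the GABA-B receptor, the target of baclofen, which works as a dimer of both. Gabbr2 (ENSRNOG00000008431), the subunit that couples to G proteins, had 5394, 5874 and 4634 in naive and 2799, 950 and 1231 in SNT libraries. Its mean dropped to 31.3% of naive (-1.83 ± 0.37, limma adjusted p = 0.00835), and to 20.6% without SNT replicate 1. Gabbr1 (ENSRNOG00000000774), the subunit that binds GABA, had 13133, 12962 and 12070 in naive and 11572, 8259 and 10349 in SNT libraries. It stood at 79.1% of naive (-0.35 ± 0.14, limma adjusted p = 0.0718), a call that was lost under 9 of 17 alternative settings, where the adjusted p ran from 0.00975 to 0.247 over all of them. The ratio of Gabbr1 to Gabbr2 was 2.43, 2.21 and 2.60 in naive and 4.13, 8.69 and 8.41 in SNT libraries. The ratio was 2.78-fold higher in SNT with no overlap (exact p = 0.1, adjusted over the 9 ratios 0.113), and 3.54-fold higher without SNT replicate 1.

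The ATP-gated channels rose and the acid-sensing channel fell. P2rx7 (ENSRNOG00000001296), known for its role in the release of interleukin-1 beta by macrophages and microglia, had 212, 196 and 251 in naive and 623, 1075 and 975 in SNT libraries. Every SNT library was above every naive one, and the mean was 4.06 times the naive mean (log2 fold change 1.99 ± 0.21, limma adjusted p = 0.00220), the largest rise among the members. P2rx4 (ENSRNOG00000001300), which in spinal microglia is tied to touch-evoked pain after nerve injury, had 427, 508 and 491 in naive and 643, 1190 and 815 in SNT libraries. It was at 1.86 times the naive mean (0.85 ± 0.22, limma adjusted p = 0.0174). SNT replicate 2 was the highest and replicate 1 the lowest SNT library for both genes. The summed myeloid and fibroblast markers, the glial markers Sox10 and Erbb3 and the member Itpr2 had the same order of SNT libraries. The summed glial markers and the members Ano6, Htra3 and Scn3b were instead highest in SNT replicate 3, as was the myeloid marker Lcp1. Of all genes that rose, 80.3% had SNT replicate 1 nearest to the naive mean. The share with the order of P2rx4 and P2rx7 was not computed. The part of any cell type in the rises was not tested. The ratio of P2rx4 to P2rx7 was 2.02, 2.59 and 1.95 in naive and 1.03, 1.11 and 0.835 in SNT libraries, a fall to 0.455 of the naive ratio without overlap (exact p = 0.1). Asic3 (ENSRNOG00000008380), an acid sensor of muscle and skin afferents, had 2492, 2640 and 2457 in naive and 2011, 1312 and 1647 in SNT libraries. Its mean was 65.5% of naive (-0.63 ± 0.15, limma adjusted p = 0.0138).

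Of the TRP channels described here, which are not all TRP members, Trpv6 was lower in SNT at 50 M alone and Trpm7 was called at no depth. Trpv6 (ENSRNOG00000014714), an epithelial calcium channel, was at 161 ± 15.5 in naive and 124 ± 14.9 in SNT libraries (log2 fold change -0.37 ± 0.15, limma adjusted p = 0.0731). It was called at 50 M but not at 25 M or 17 M (limma adjusted p = 0.247 and 0.239), and at 50 M the call was lost under 7 of 17 alternative settings, over which the adjusted p ran from 0.0272 to 0.270. Trpm7 (ENSRNOG00000011596), a broadly expressed magnesium and calcium channel fused to a kinase, had 1995, 1995 and 2059 in naive and 1979, 2101 and 2101 in SNT libraries. The groups overlapped, and the log2 fold change was 0.03 ± 0.06 (limma adjusted p = 0.715).

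The 2 members of the CLC family were not called, whereas the 2 anoctamins changed in opposite directions. Clcn6 (ENSRNOG00000008345) and Clcn7 (ENSRNOG00000016976) encode chloride-proton exchangers of late endosomes and lysosomes. Clcn6 had 2538, 2709 and 2389 in naive and 2725, 2336 and 2460 in SNT libraries (log2 fold change -0.02 ± 0.09, limma adjusted p = 0.846). Clcn7 had 675, 748 and 597 in naive and 734, 812 and 708 in SNT libraries (0.16 ± 0.11, limma adjusted p = 0.245). The ratio of Clcn6 to Clcn7 was the only 1 of the 9 in which groups overlapped, at 3.76, 3.62 and 4 in naive and 3.71, 2.88 and 3.47 in SNT libraries (0.880 of the naive ratio, exact p = 0.2).

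Ano6 (ENSRNOG00000006995), a calcium-activated scramblase that exposes phosphatidylserine on the cell surface, had 1853, 1820 and 1745 in naive and 3017, 3531 and 3588 in SNT libraries. The SNT mean was 1.87 times the naive mean (log2 fold change 0.90 ± 0.09, limma adjusted p = 0.00185), and this was the smallest adjusted p among the members. Ano4 (ENSRNOG00000006841), a member of the same family, had 2351, 2473 and 2199 in naive and 1814, 1340 and 1472 in SNT libraries. It fell to 65.9% of the naive mean (-0.61 ± 0.12, limma adjusted p = 0.00770). The ratio of Ano4 to Ano6 was 1.27, 1.36 and 1.26 in naive and 0.601, 0.380 and 0.410 in SNT libraries. These counts are not corrected for length, so only the change of the ratio between groups can be read. The ratio fell to 0.351 of its naive value without overlap (exact p = 0.1). Since Ano4 and Ano6 each had groups apart in opposite directions, this separation was bound to occur. The exact p adds nothing to the single-gene calls.

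The calcium release channels of the endoplasmic reticulum also moved apart. Itpr2 (ENSRNOG00000001804), an inositol trisphosphate receptor, had 406, 314 and 448 in naive and 632, 756 and 720 in SNT libraries. All SNT libraries were higher, at a mean of 1.81 times naive (log2 fold change 0.86 ± 0.15, limma adjusted p = 0.00544). Ryr3 (ENSRNOG00000006645), a ryanodine receptor, had 447, 513 and 449 in naive and 330, 219 and 299 in SNT libraries. It fell to 60.2% of the naive mean (-0.75 ± 0.16, limma adjusted p = 0.0101). The ratio of Itpr2 to Ryr3 rose 3.05-fold, from 0.907, 0.612 and 0.998 in naive to 1.92, 3.45 and 2.41 in SNT libraries (exact p = 0.1). Itpr2 and Ryr3 each had groups apart in opposite directions, so their ratio had to be apart too. Its exact p adds nothing to the single-gene calls. Htra3 (ENSRNOG00000008182), the protease, had 182, 182 and 292 in naive and 309, 458 and 503 in SNT libraries, 1.94 times the naive mean (0.96 ± 0.25, limma adjusted p = 0.0194).

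The calls were nearly the same at each read depth. At 25 M, 6 members were higher and 12 lower, with 27.7% of all tested genes called higher and 28.3% lower (55.9% in either direction). The 17 M runs also gave 6 higher and 12 lower members, with 26.0% and 26.4% of all tested genes (52.3% in either direction). The same 6 genes rose and the same 12 fell at all 3 depths, and the thirteenth gene at 50 M was Trpv6. Cacna1b, Cacng4, Clcn6, Clcn7, Kcnh1 and Trpm7 were called at no depth. Since the runs share libraries, the depths are no independent replicates. The groups did not overlap for 16 members at 25 M and 19 at 17 M, against 60.1% and 56.9% of all genes. For Scn1a the log2 fold change was -2.64, -2.61 and -2.66 at 50 M, 25 M and 17 M. For P2rx7 it was 1.99, 2.12 and 2.13, and for Cacng4, which has few reads, -0.16, -0.36 and 0.07.

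**Figure D4:**
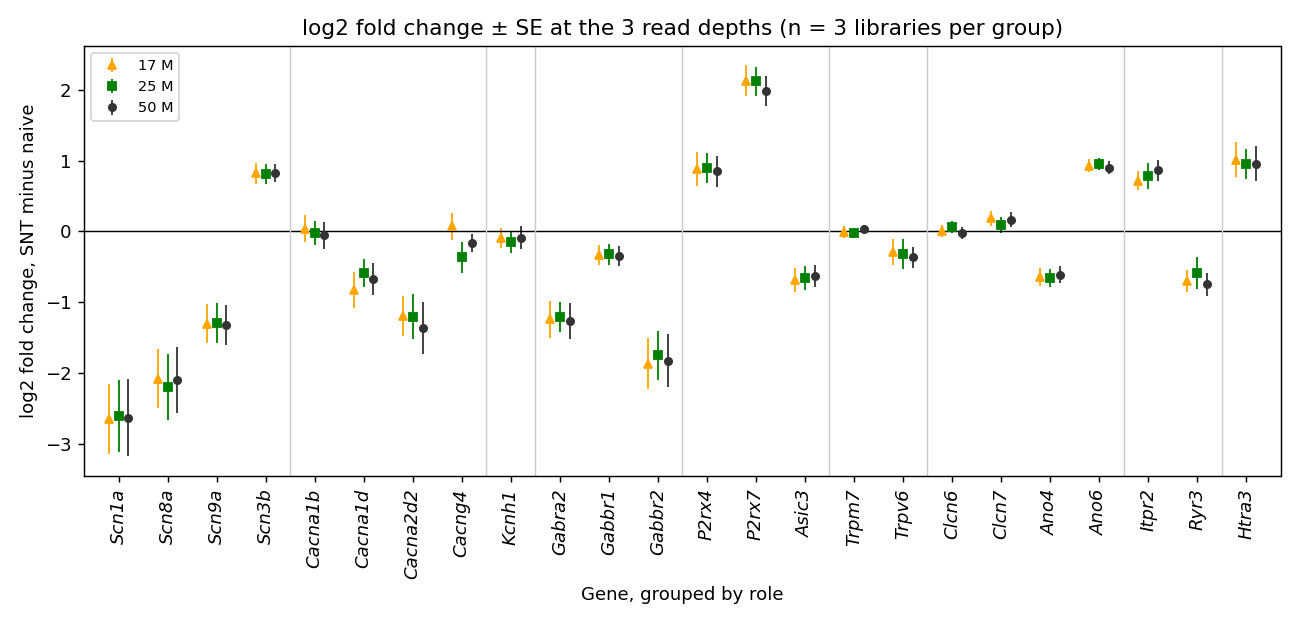
The log2 fold change (SNT minus naive) ± SE of 24 members at 17 M, 25 M and 50 M (n = 3 libraries per group), grouped by role. Scn1a is the lowest and P2rx7 the highest at each depth, and Cacng4 changes sign between depths without a call.

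The other genes of these pathways were taken as a list of 23 partners, among them the 7 genes left out by name, channel-binding proteins and other channels. In the list, 14 genes were lower in SNT, 6 were higher and 3 were not called, with a median log2 fold change of -0.74. Of all genes tested at 50 M, 29.4% were lower and 29.2% higher, with a median of 0.01. The 7 genes left out by name are all among the 14. The list was made with earlier results of these data known, so its counts are a description. Stac2, an adaptor of L-type calcium channels, showed the largest change, at 19.8, 15.1 and 14.4 in naive and 1804, 1933 and 2468 in SNT libraries. The mean was 126 times the naive mean (log2 fold change 6.89 ± 0.18, limma adjusted p = 2.54e-05). Htr3b, a subunit of the serotonin-gated channel, was at 10.1% of the naive mean, Kcnh7 at 13.3% and Kcnc1 at 15.5% (log2 fold change -4.50 ± 1.00, -3.54 ± 0.73 and -3.23 ± 0.68). Without SNT replicate 1 these 3 shares were 1.75%, 4.46% and 5.64%.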

How the data were processed

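RNA-seq values came from 18 runs, 3 depths of 3 SNT and 3 naive libraries, and all 18 columns were used. Per the paper, poly(A) reads were placed on Rn5 by Bowtie, allowing 1 mismatch, reads mapping to more than 1 place were discarded, and exonic reads were summed per Ensembl gene without strand, leaving out exons shared by genes. The signal values, which the authors deposited as 1 table per depth, are these counts divided by DESeq size factors. Reads of near-identical paralogs are partly lost, and antisense transcripts are counted with the gene they overlap.

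Dividing each column by its smallest value above 0 gave back the read counts (100% of values whole within 1e-06 reads). Groups were compared within a depth by limma 3.58.1 (R 4.3.3), fitted to log2(normalized count + 1), with a trended empirical Bayes prior, two-sided and with no covariate. P-values were adjusted by Benjamini-Hochberg over all genes with reads in at least 3 of 6 libraries, and the FDR threshold was 0.1. Fold changes are on the log2(normalized count + 1) scale, and ratios and percentages are of mean normalized counts. Recovered counts were also tested with edgeR 4.0.16 (quasi-likelihood, TMM) and DESeq2 1.42.0, and limma was rerun with a pseudocount of 0.5 or 5, without the filter, with a mean of at least 10, with no trend, equal library totals, an FDR of 0.05, a replicate block, leaving out each library, and the 3 runs summed. Counts without Htra3 were added after its identity was seen.

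The text names 24 of the 26 members (2 are not reported here), and of the partner list it gives values for the 4 called genes with the largest log2 fold change. The direction of the potassium channel genes left out by name is given beside them, and the marker sums without Nefh or Gpnmb were added after the data were seen. Members, lists, pairs and tests were chosen with earlier results of these data known. Symbols and membership came from a supplementary table of the study, held in part (1994 genes with a symbol). Positions in Rn5, exon arrays and intronic reads were not used here. The precision is set by 3 libraries per group, each from different animals, and by counting error where reads are few.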

Additional observations from a re-analysis of the deposited data

How the results depend on the processing

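Of 408 values of 24 members under 17 alternatives, 378 kept their direction and their side of the threshold, 19 lost the call, 2 gained it and 9 changed sign, and 19 of the 24 genes kept 1 call throughout. At 50 M the number of members higher in SNT was 6 to 8 and the number lower 10 to 13. The sign changed only for genes that were not called: with equal library totals the log2 fold change was 0.10 for Cacna1b, 0.073 for Kcnh1 and 0.14 for Clcn6. When each library was left out in turn, it ranged from -0.22 to 0.12 for Cacna1b, from -0.22 to 0.074 for Kcnh1 and from -0.085 to 0.026 for Clcn6. With equal totals the median over all genes at 50 M went from 0.0095 to 0.16, a shift of 0.15, and the share of calls that were higher from 49.8% to 62.5%. Trpm7 (log2 fold change 0.19, close to that shift) and Clcn7 (0.32) then passed the threshold (limma adjusted p = 0.0569 and 0.0389). Gabbr1 (-0.19) and Trpv6 (-0.21) lost their calls there. The Cacna1b to Cacna1d log2 ratio differed by 0.87 in the 17 M runs and that of Clcn6 to Clcn7 by -0.028 in the 25 M runs, and the cause was not tested.

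The replicate numbers were not found to pair the samples, since the deviations of same-numbered naive and SNT libraries correlated at 0.04, -0.17 and 0.08. With the replicate number as a block, 6 members were higher and 11 lower at 50 M. Gabbr1 (limma adjusted p = 0.114) and Trpv6 (0.112) were the members that lost their call at 50 M. With 3 libraries per group, the exact test of a ratio cannot pass 0.05, and SNT replicate 1 moved the ratio of SNT to naive by over 1.5 times for Scn1a (0.205 to 0.101), Scn8a (0.275 to 0.159) and Gabbr2 (0.313 to 0.206).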
